A study of Mus musculus with 101 samples.

Results

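The samples described here are 15 of the 101 libraries of a study of activin E in mice, and they compare subcutaneous fat from wild-type (WT) animals fed a high-fat diet (HFD, 7 libraries) with the same depot from WT animals fed chow (8 libraries). They were chosen by their labels alone: genotype WT, tissue subcutaneous adipose, and diet. All animals were males on the C57BL/6NTac background, and neither group received a viral vector or another treatment. The wider study also holds the same 2 diets in mice lacking Inhbe, the gene for the activin E subunit, epididymal fat from both genotypes, and chow-fed mice given a viral vector carrying Inhbe or green fluorescent protein. The series text gives 8 WT mice on HFD, and 7 subcutaneous libraries of that group were analysed here. The sources used here state neither the makeup of the diets, nor the time on them, nor the age of the mice. Each library came from polyadenylated RNA of whole tissue, so fewer cells of a type and less RNA per cell cannot be told apart.

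White fat stores energy as triglyceride inside adipocytes and releases it as fatty acids when catecholamines switch on lipolysis. During overfeeding the depot grows, its adipocytes enlarge, and their secretion changes: leptin output rises with fat mass while adipsin and several other products fall in obese rodents. Growth of the depot also calls on the cells between adipocytes, among them fibroblasts and endothelial cells that lay down collagen and macrophages that take up lipid from dying fat cells. The subcutaneous pad of a mouse surrounds a lymph node, so its RNA can contain lymphocyte transcripts.

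The 15 libraries held 13634565 to 17288398 estimated counts each, with 15795 to 16775 genes detected, and 3 counts correspond to 0.174 to 0.22 counts per 1000000 counts of the library (CPM). Adiponectin (Adipoq), a defining adipocyte product, ranged from 1459 to 2234 CPM on chow (median 2002) and from 1514 to 2626 CPM on HFD (median 1949.6), and perilipin 1 (Plin1), the main adipocyte lipid droplet coat, ranged from 557 to 1207 CPM on chow (median 959) and from 444 to 1246 CPM on HFD (median 708). Inhbe had no count in any of the 8 chow libraries and in 6 of the 7 HFD libraries, so its level in fat does not check the genotype labels. HFD library 6 had 5 counts of Inhbe, the highest albumin (Alb) level at 160 CPM against 4.08 to 36.7 in the other 14 libraries, and it stood apart from the other HFD libraries at many genes. A list of 13 B cell and lymph node markers summed to 3.38 CPM in chow library 1 and to 4.08 to 6.49 CPM in HFD libraries 1, 2 and 4, against 353 to 851 CPM in the other 11 libraries. Chow libraries 6, 7 and 8 had the highest sums of neutrophil markers (46.7 to 147 CPM against 5.54 to 42.1 in the other 12) and of mast cell markers (198 to 330 CPM against 62.9 to 121). They also had the lowest chow levels of Plin1 (557 to 669 CPM against 923 to 1207 in the other chow libraries) and Adipoq (1459 to 1817 against 1995 to 2234). The same held for the adipocyte carrier Fabp4 (6348 to 8281 against 10405 to 13497), while Cfd and Lep did not separate them in this way. The brown-fat gene Ucp1 reached 83.4 CPM in chow library 2. The plot of marker sums gives these lists for each library.

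**Figure D1:**
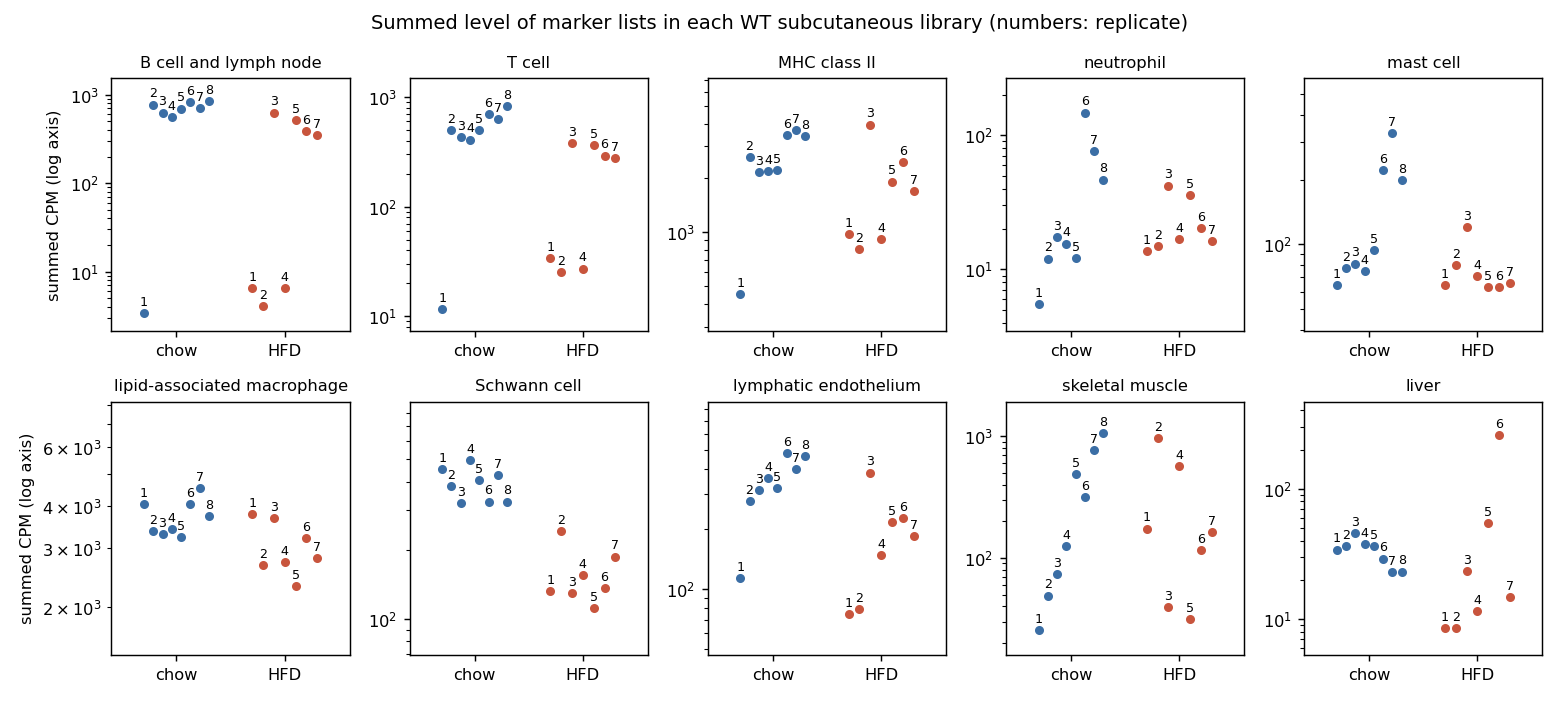
Summed level (CPM, log axis) of the members of 10 marker lists in each of the 8 chow (blue) and 7 HFD (red) WT subcutaneous libraries, with the replicate number above each point. Chow library 1 and HFD libraries 1, 2 and 4 lie far below the others for B cell and T cell markers, and Schwann cell markers are lower in all 7 HFD libraries than in all 8 chow libraries.

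HFD changed the level of a large share of genes in both directions. Of 14220 genes, 3215 were higher on HFD (22.6% of those tested) and 3063 were lower (21.5%) at an adjusted p under 0.05 in edgeR's quasi-likelihood test, together 44.1%. The p-values measure the spread between libraries that the labels call biological replicates. The median log2 fold change over all genes tested was -0.03, and the middle part of the genes, from the lower to the upper quartile, lay between -0.40 and 0.33. Changes of at least 2-fold were fewer: 728 genes (5.12%) rose and 1014 genes (7.13%) fell by that much. At the far end, 69 genes rose and 24 fell by at least 8-fold. For 609 genes (4.28%) every HFD library lay above every chow library, and for 861 genes (6.05%) every HFD library lay below. Among 397 long noncoding RNA genes tested, 36 rose and 153 fell, while among 13702 protein-coding genes 3166 rose and 2864 fell. Without chow libraries 6, 7 and 8, 4819 genes were called (2824 higher, 1995 lower), 4304 of which were among the 6278 called with all libraries. A fit on these 15 libraries alone, without the spread of the Inhbe knockout groups, called 3867 genes (2187 higher, 1680 lower).

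**Figure D2:**
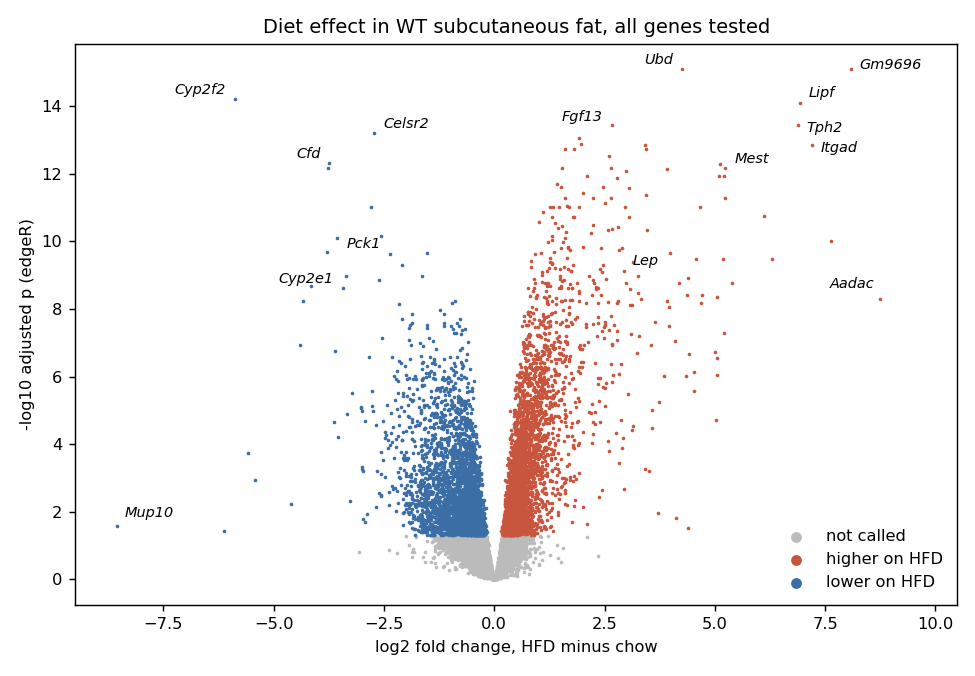
Log2 fold change (HFD minus chow, horizontal) against the -log10 adjusted p of edgeR (vertical) for the 14220 genes tested. Red points are the 3215 genes called higher on HFD, blue points the 3063 called lower and grey points the rest. Gm9696, Lipf, Tph2 and Itgad stand at the upper right and Cyp2f2 at the upper left.

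Most of the largest rises were of genes that were near silent on chow, with Mest a clear exception. Itgad (gene ID 381924, chr7:128173933-128205504, mm10), the integrin alpha-D subunit of myeloid cells, ranged from 0.191 to 1.26 CPM on chow (median 0.654) and from 25.7 to 166 CPM on HFD (median 73.8). Tph2 (gene ID 216343, chr10:115078641-115185022), the neuronal form of the enzyme that begins serotonin synthesis, ranged from 0.218 to 2.78 CPM on chow (median 0.664) and from 51.9 to 173 CPM on HFD (median 102). Lipf (gene ID 67717, chr19:33961248-33976813), which encodes gastric lipase, ranged from 0.0728 to 0.983 CPM on chow (median 0.374) and from 34.4 to 55.2 CPM on HFD (median 44.5). None of these 3 genes overlapped between the diets, and on the log2 scale they rose by 7.20 ± 0.43, 6.88 ± 0.38 and 6.93 ± 0.37 (± is the standard error throughout). Gm9696, annotated as a transcribed pseudogene whose reads may be shared with a close copy, went from at most 0.752 CPM on chow to 26.7 to 54.3 CPM on HFD (median 39.9). Slc5a7, the choline transporter best known from cholinergic nerve endings, rose 42.0-fold (5.39 ± 0.50, adjusted p = 1.68e-09) from 0.463 to 13.6 CPM on chow (median 2.84) to 81.3 to 253 CPM on HFD (median 149.8). Mest (gene ID 17294, chr6:30733506-30748466), an imprinted gene known for its tie to fat pad expansion, ranged from 15.7 to 56.0 CPM on chow (median 39.4) and from 905 to 1827 CPM on HFD (median 1245). It was the most abundant gene among the 12 largest rises, 37.7-fold higher (5.24 ± 0.34, adjusted p = 6.89e-13), with no overlap between diets. The noncoding gene 1700047G03Rik rose by 5.23 ± 0.37, and Tmem132b by 6.12 ± 0.47, and in both cases all 7 HFD libraries lay above all 8 chow libraries.

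The other members of this group were so low on chow that a ratio rests on few counts. Aadac, an arylacetamide deacetylase that hydrolyses lipid esters in liver, had 0 counts over the 8 chow libraries and 371 counts over the 7 HFD libraries. Against a floor of 3 counts over the chow group it was at least 136-fold higher. Gpr50, an orphan relative of the melatonin receptors, had 2 counts on chow and 486 on HFD, a ratio of 268 with a 95% counting interval of 73.7 to 2216 (exact, for counting error only). Cacng5 reached 0.138 CPM at most on chow and 1.24 to 5.95 CPM on HFD (median 2.35), and the peptide hormone gene Cck reached 0.147 CPM at most on chow and 0.962 to 5.44 CPM on HFD (median 2.39). Oxtr, the oxytocin receptor, fell just outside these 12 and was singled out after its values were seen. It ranged from 4.16 to 16.5 CPM on chow (median 7.44) and from 181 to 428 CPM on HFD (median 274), a rise of 5.21 ± 0.35.

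Genes with the smallest p among those of at least 10 CPM on average overlapped in part with the largest rises. Ubd, a ubiquitin-like modifier known to be induced by inflammatory cytokines, ranged from 6.63 to 12.5 CPM on chow (median 11.6) and from 111 to 302 CPM on HFD (median 168) and rose 19.3-fold (4.27 ± 0.20, adjusted p = 8.24e-16). Fgf13, an intracellular member of the fibroblast growth factor family, ranged from 13.8 to 26.5 CPM on chow (median 17.5) and from 78.0 to 125 CPM on HFD (median 105) (2.66 ± 0.15, adjusted p = 3.62e-14). Palld, which encodes the actin-bundling protein palladin, ranged from 65.3 to 90.8 CPM on chow (median 75.3) and from 209.5 to 315 CPM on HFD (median 275). Palld differed little within each diet, and its rise of 1.97 ± 0.12 was measured with a small error. Lctl (3.41 ± 0.21), a Klotho-family gene, Kcnj14 (3.43 ± 0.21), an inward rectifier potassium channel, and Fam122b (1.93 ± 0.11) were higher in all 7 HFD libraries than in any chow library.

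**Figure D3:**
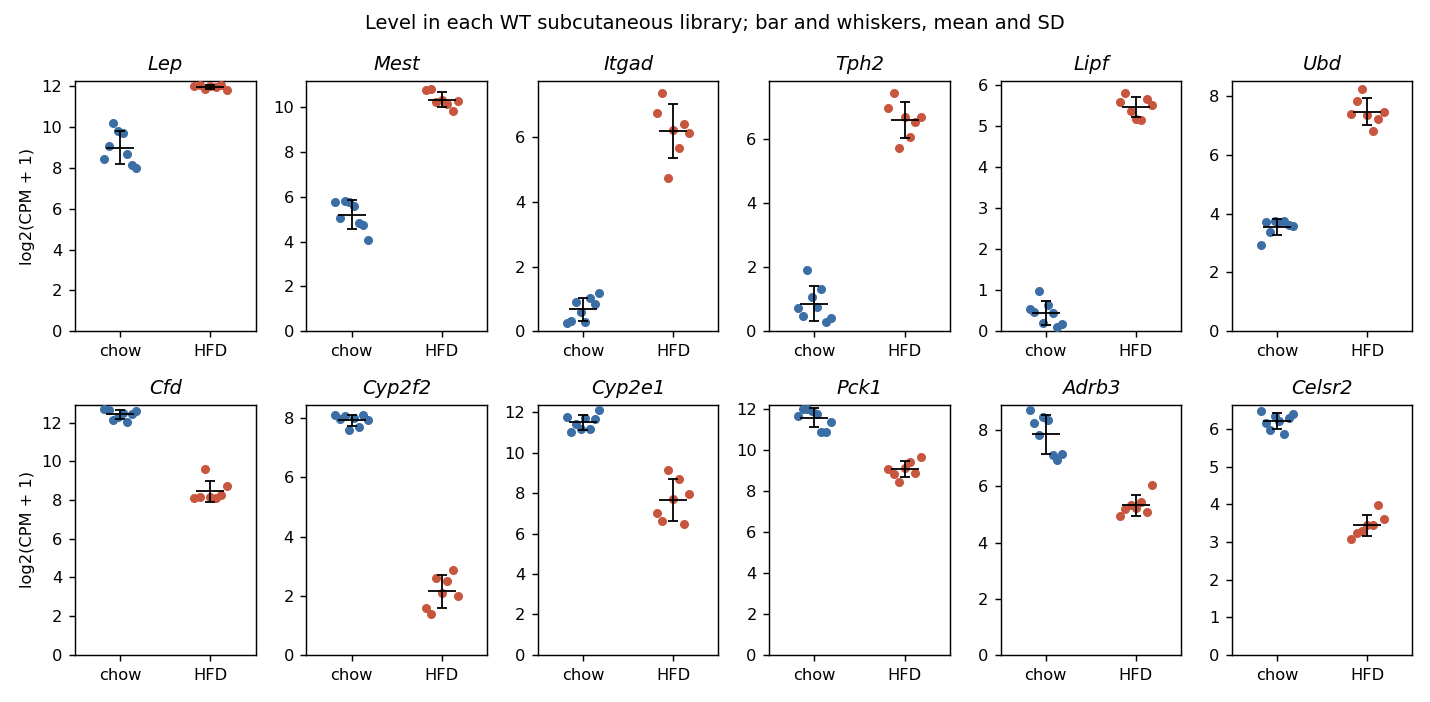
Level of 12 genes, log2(CPM + 1), in each WT subcutaneous library on chow (blue, 8) and HFD (red, 7), with the mean and SD of each group. Lep, Mest, Itgad, Tph2, Lipf and Ubd lie higher on HFD and Cfd, Cyp2f2, Cyp2e1, Pck1, Adrb3 and Celsr2 lower, with no overlap of the groups in any panel.

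The largest falls were of cytochrome P450 genes, adipsin and several genes of low level. Cyp2f2 (gene ID 13107, chr7:27119955-27133660), a cytochrome P450 that oxidises small aromatic compounds, ranged from 192 to 274 CPM on chow (median 254) and from 1.61 to 6.35 CPM on HFD (median 3.25), a fall of 59.0-fold (-5.88 ± 0.30, adjusted p = 6.2e-15). Cyp2e1, the ethanol-inducible P450, ranged from 2059 to 4356 CPM on chow (median 3019.7) and from 87.2 to 574 CPM on HFD (median 207) (-3.44 ± 0.34, adjusted p = 2.45e-09). Cyp1a1, the classic target of the aryl hydrocarbon receptor, was low throughout, at 1.59 to 4.96 CPM on chow (median 2.76) and at most 0.399 CPM on HFD. Of the 12 members tested from a P450 list, 5 fell, 1 rose and 6 were not called. The counts of this and every later list stand beside the 22.6% that rose and the 21.5% that fell over all genes tested. Cyp4b1 was the P450 list member that rose (1.03 ± 0.14), and Por, the reductase that feeds electrons to P450 enzymes, fell by 0.73 ± 0.17. Pon1 (paraoxonase 1, -4.34 ± 0.44), Acsm3 (a medium-chain acyl-CoA synthetase, -3.57 ± 0.30), Mpzl2 (-3.78 ± 0.25), Prtn3 (proteinase 3, -3.78 ± 0.33), Rhbg (an ammonium transporter, -3.61 ± 0.45) and the noncoding gene 2010016I18Rik (-4.16 ± 0.40) were lower in all 7 HFD libraries than in any chow library. Celsr2, a cadherin of planar cell polarity, fell from 57.7 to 88.4 CPM on chow (median 75.2) to 7.51 to 14.8 CPM on HFD (median 9.90) (-2.71 ± 0.16, adjusted p = 6.32e-14). Slc43a1, a transporter of large neutral amino acids (-2.80 ± 0.21), and the complement gene C2 (-1.52 ± 0.13) were also among the smallest p-values of falling genes.

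A few of the largest falls rested on some of the chow libraries. Slfn4, a myeloid interferon-responsive gene, ranged from 1.08 to 202 CPM on chow (median 2.24) and from 0.199 to 2.04 CPM on HFD (median 0.412), with 13.3 to 202 CPM in chow libraries 6, 7 and 8 and at most 2.67 in the other 5. Its fall (-5.59 ± 1.10, adjusted p = 0.000178) was not called without those 3 libraries. Clca3a2 ranged from 0.190 to 10.0 CPM on chow (median 1.69) and from 0 to 0.199 CPM on HFD (median 0) (-5.41 ± 1.28), with 2.91 to 10.0 CPM in chow libraries 1, 3, 6 and 7 and at most 0.463 in the other 4. The major urinary protein genes are near-identical copies whose reads cannot be assigned with certainty: Mup10 had 425 counts over the chow libraries and 0 over the HFD libraries, at least 129-fold lower against a floor of 3 counts over the HFD group, yet its median on chow was 0, and chow library 8 alone held 25.6 CPM against at most 2.05 in the others. Mup18 was at 12.2 to 30.7 CPM in chow libraries 6, 7 and 8 and at most 0.956 CPM in the other 5. Of 8 major urinary protein genes tested in a list, 3 fell, 2 rose and 3 were not called, and without chow libraries 6, 7 and 8 none of 9 fell and 2 rose. The summed level of the list was highest in HFD library 6, at 124 CPM. It was 68.4 to 79.5 CPM in chow libraries 6, 7 and 8 and 4.21 to 25.0 CPM in the remaining libraries. The fall of Mup10 and Mup18 is therefore not a fall of the whole family in every HFD library.

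Leptin and adipsin moved in opposite directions. Lep (gene ID 16846, chr6:29060221-29073876), the hormone by which fat signals its size, ranged from 252 to 1173 CPM on chow (median 475) and from 3612 to 4259.6 CPM on HFD (median 4119). Its HFD libraries lay close together and entirely above the chow libraries, 7.65-fold higher (2.94 ± 0.27, adjusted p = 7.34e-10). Cfd (gene ID 11537, chr10:79890853-79892655), the serine protease adipsin of the alternative complement pathway, ranged from 4206 to 6592 CPM on chow (median 5718) and from 271 to 789.6 CPM on HFD (median 283). It was the most abundant gene among the 12 largest falls, 13.3-fold lower (-3.73 ± 0.24, adjusted p = 4.81e-13). Of 11 adipokine genes tested, 5 rose and 3 fell, with a median log2 fold change of 0.15 against -0.03 over all genes. The blood pressure peptide precursor Agt fell (-2.17 ± 0.37, adjusted p = 2.71e-05), the vascular peptide Apln rose (2.12 ± 0.25), and Nampt, an enzyme of NAD synthesis that is also secreted, fell (-0.55 ± 0.16). Adipoq (0.15 ± 0.13, adjusted p = 0.368) and resistin, Retn (-0.04 ± 0.16, adjusted p = 0.843), were not called.

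All 10 genes of a list whose level is known to follow fat mass in mice rose, with a median of 1.45. Beside Mest these were led by Trp53inp2, an autophagy regulator, which ranged from 204 to 773 CPM on chow (median 423) and from 1415 to 3015 CPM on HFD (median 1784) (2.35 ± 0.23, adjusted p = 2.39e-09), and by Sfrp5, a secreted Wnt antagonist, which ranged from 11.6 to 72.3 CPM on chow (median 32.1) and from 147 to 290.0 CPM on HFD (median 182) (2.69 ± 0.36, adjusted p = 9.22e-07). Npr3, the clearance receptor for natriuretic peptides, ranged from 184 to 821 CPM on chow (median 459.8) and from 552 to 2816 CPM on HFD (median 2684) (2.35 ± 0.32, adjusted p = 1.1e-06), and HFD library 6 alone lay within the chow range. The caveolar genes Cav2 (1.13 ± 0.15), Cav1 (0.93 ± 0.15) and Cavin1 (1.01 ± 0.15) and the bone morphogenetic protein Bmp3 (1.71 ± 0.22) rose as well. Without chow libraries 6, 7 and 8, 8 of the 10 list genes rose and none fell. In epididymal fat of WT mice 3 rose and 2 fell, with a median of 0.19. The list was assembled with earlier results of these data known, so its direction is a description.

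Most genes of a fatty acid uptake list, which holds regulators as well as carriers, and most of a lipid droplet coat list rose in the whole tissue. Of 10 fatty acid uptake genes tested, 8 rose and none fell (median 0.86). Cd36, the fatty acid translocase, ranged from 2421 to 4383 CPM on chow (median 3832) and from 3742 to 7966 CPM on HFD (median 7125) (1.03 ± 0.16, adjusted p = 4.05e-06). Fabp5, a cytosolic fatty acid carrier, ranged from 66.3 to 99.7 CPM on chow (median 79.3) and from 253 to 528 CPM on HFD (median 284) (2.25 ± 0.16, adjusted p = 5.38e-12). Vldlr, the very-low-density lipoprotein receptor (1.37 ± 0.19), Angptl4, an inhibitor of lipoprotein lipase (0.99 ± 0.17), Gpihbp1, which carries that lipase to the capillary lumen (1.07 ± 0.24), and Slc27a4 (0.72 ± 0.14), a fatty acid transport protein, completed the 6 smallest p-values. Among 10 lipid droplet coat genes 6 rose and 1 fell. Plin2, the droplet coat of cells that are taking up lipid, ranged from 193 to 339.7 CPM on chow (median 231) and from 613 to 969 CPM on HFD (median 799) (1.91 ± 0.14, adjusted p = 9.57e-12), and Hilpda, an inhibitor of the lipase ATGL, ranged from 2.68 to 7.86 CPM on chow (median 4.57) and from 9.62 to 41.1 CPM on HFD (median 20.4). Both were higher in all 7 HFD libraries, while Cidea, a droplet fusion protein typical of brown and beige fat, fell (-1.27 ± 0.38, adjusted p = 0.00786) although its groups overlapped and the call was lost without the low lymph node libraries.

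Triglyceride synthesis genes were split. Dgat2, which adds the last acyl chain, ranged from 458 to 1131 CPM on chow (median 779.7) and from 1569 to 3639 CPM on HFD (median 1811) (1.66 ± 0.20, adjusted p = 9.8e-08), and Mogat2, an acyltransferase acting on monoacylglycerol, rose from 0.146 to 1.68 CPM on chow (median 0.799) to 5.72 to 9.90 CPM on HFD (median 6.50). Gk, glycerol kinase (1.53 ± 0.20), and Agpat2 (1.11 ± 0.19) also rose. Pck1, the rate-setting enzyme of glyceroneogenesis, went the other way and ranged from 1893 to 4161 CPM on chow (median 3346) and from 351 to 815 CPM on HFD (median 544), a 5.12-fold fall (-2.36 ± 0.21, adjusted p = 2.33e-10) with no overlap, and Gpat4 fell by 0.64 ± 0.13. In all, 5 of 14 genes rose, 4 fell and 5 were not called, with a median of 0.07. Over all genes 22.6% rose and 21.5% fell.

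The enzymes of fatty acid synthesis did not move as one. Of 21 lipogenesis genes, 7 rose, 5 fell and 9 were not called (median -0.22), against 22.6% higher and 21.5% lower over all genes. Those supplying reducing power and citrate rose: malic enzyme Me1 (1.36 ± 0.20, adjusted p = 3.85e-06), Pgd (1.31 ± 0.16) and G6pdx (0.95 ± 0.13) of the pentose phosphate pathway and the citrate carrier Slc25a1 (1.37 ± 0.21) were higher in all 7 HFD libraries than in any chow library. Scd2, a desaturase, ranged from 187 to 411 CPM on chow (median 249) and from 430.4 to 955 CPM on HFD (median 797) (1.70 ± 0.18, adjusted p = 8.69e-09). Fads1, the delta-5 desaturase, fell and ranged from 77.1 to 137 CPM on chow (median 94.3) and from 27.8 to 46.4 CPM on HFD (median 30.7) (-1.38 ± 0.16, adjusted p = 8.7e-08). The other members named here were singled out after their values were seen. Acaca, acetyl-CoA carboxylase 1, fell (-1.38 ± 0.28, adjusted p = 0.00023), as did Thrsp (-1.33 ± 0.26, adjusted p = 0.000132), a small protein linked to lipogenesis. Fasn, fatty acid synthase, ranged from 1004 to 4457 CPM on chow (median 2739) and from 822 to 5365 CPM on HFD (median 2024) (-0.09 ± 0.31, adjusted p = 0.83), and Scd1 was not called either (-0.07 ± 0.37, adjusted p = 0.893), with values of 5181 to 42942 CPM on chow (median 23324).

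Most sterol synthesis genes rose. Of 20 cholesterol synthesis genes tested 16 rose and none fell, with a median of 1.14. Insig1, the sensor that holds the sterol regulatory proteins in the endoplasmic reticulum, ranged from 121 to 191 CPM on chow (median 135) and from 328 to 543 CPM on HFD (median 407) (1.69 ± 0.18, adjusted p = 1.4e-08). Lss, lanosterol synthase, ranged from 17.5 to 28.9 CPM on chow (median 21.0) and from 33.6 to 78.4 CPM on HFD (median 61.2) (1.59 ± 0.14, adjusted p = 5.94e-10). Msmo1 (1.07 ± 0.09), Mvd (1.40 ± 0.15) and Cyp51 (1.20 ± 0.12) rose with them. The regulator Srebf2, singled out for that role, was not called (-0.38 ± 0.16, adjusted p = 0.0553).

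The beta-3 adrenergic receptor fell while the main lipases were not called. Adrb3, which encodes this receptor and starts lipolysis in mouse adipocytes, ranged from 122 to 421 CPM on chow (median 267) and from 29.7 to 65.8 CPM on HFD (median 36.2), a 5.83-fold fall (-2.54 ± 0.30, adjusted p = 7.44e-08) with no overlap. Adipose triglyceride lipase, Pnpla2 (-0.20 ± 0.18, adjusted p = 0.373), and hormone-sensitive lipase, Lipe (0.03 ± 0.16, adjusted p = 0.877), did not pass the threshold. Mgll, which cleaves the last fatty acid, rose (1.32 ± 0.22, adjusted p = 1.85e-05), as did the protein kinase A subunits Prkaca (0.70 ± 0.17) and Prkar2b (0.56 ± 0.16) and the fatty acid carrier Fabp4 (0.72 ± 0.17). In all 4 of 13 lipolysis genes rose and 2 fell (median 0.03), against 22.6% higher and 21.5% lower over all genes.

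Among 8 receptors and effectors that restrain lipolysis 3 rose and 5 fell. Ptger3, the prostaglandin E receptor EP3, ranged from 9.25 to 25.1 CPM on chow (median 11.4) and from 67.3 to 103 CPM on HFD (median 79.6), a 6.83-fold rise (2.77 ± 0.19, adjusted p = 1.34e-12), and Adora1, the adenosine A1 receptor, rose by 1.05 ± 0.21. The lactate receptor Hcar1 (-1.36 ± 0.27, adjusted p = 0.000179), the ketone body receptor Hcar2 (-1.01 ± 0.21, adjusted p = 0.000354) and the cAMP phosphodiesterase Pde3b (-0.65 ± 0.21, adjusted p = 0.0135) fell. Acvr1c, which encodes ALK7, the receptor through which activin E is reported to act on adipocytes, ranged from 166 to 439 CPM on chow (median 252) and from 42.3 to 215 CPM on HFD (median 165) and was called lower (-0.57 ± 0.23, adjusted p = 0.0428). It was not called when chow libraries 1, 2, 4 or 5 or HFD libraries 3, 4, 6 or 7, one at a time, was left out (adjusted p = 0.0521 to 0.165). HFD library 6 held the lowest value.

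Ligands and antagonists of the activin pathway other than Inhbe gave 3 rises and 1 fall (Acvr1c) among 10 genes tested. Fstl3, a secreted activin antagonist, ranged from 2.25 to 5.29 CPM on chow (median 4.26) and from 10.3 to 22.9 CPM on HFD (median 14.5) (2.15 ± 0.20, adjusted p = 1.06e-09). Bambi, a decoy receptor (1.09 ± 0.20), and Inhbb, the activin B subunit (0.70 ± 0.18), rose less. Of 12 genes known as SMAD targets 7 rose and 1 fell (median 0.91). Pmepa1, a feedback inhibitor of SMAD signalling, ranged from 177 to 271 CPM on chow (median 199.7) and from 368 to 1029.9 CPM on HFD (median 610.3) (1.70 ± 0.22, adjusted p = 3.47e-07). Nedd9 (1.33 ± 0.20), Smad6 (1.00 ± 0.20) and Ldlrad4 (0.82 ± 0.18) rose too, and Bambi is also on this list.

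Insulin signalling genes were mostly lower where they changed. Of 17 tested 7 fell and 1 rose (median -0.25). Irs1, an insulin receptor substrate, ranged from 63.2 to 204 CPM on chow (median 96.8) and from 21.7 to 54.7 CPM on HFD (median 48.7) (-1.21 ± 0.23, adjusted p = 0.000116). Slc2a4, the insulin-responsive glucose transporter GLUT4, ranged from 92.3 to 213 CPM on chow (median 179) and from 73.3 to 149.8 CPM on HFD (median 82.1) (-0.61 ± 0.18, adjusted p = 0.00578), and 4 of 7 HFD libraries lay below all chow libraries. Irs2 (-0.74 ± 0.23), Tbc1d4 (-0.52 ± 0.14) and Slc2a1 (-0.39 ± 0.13) were also called lower, the last 2 not without chow libraries 6, 7 and 8. Without the 4 low lymph node libraries Slc2a4 and Slc2a1 were not called. Grb14, an adaptor that inhibits the insulin receptor, ranged from 9.72 to 67.7 CPM on chow (median 45.6) and from 83.9 to 117 CPM on HFD (median 104) and was the only member called higher (1.51 ± 0.31, adjusted p = 0.000271). Of 13 glycogen genes 3 rose and 3 fell, near the shares over all genes of 22.6% higher and 21.5% lower. Gys2 (1.13 ± 0.27), Gyg (0.63 ± 0.11) and Ppp1r3d (1.10 ± 0.15) were higher. Gys1 (-0.61 ± 0.16) and Ppp1r3c (-0.70 ± 0.21) were lower, the former not without the low lymph node libraries. Branched-chain amino acid breakdown had 4 falls and 1 rise among 17 genes, led by Ivd (-0.83 ± 0.13, adjusted p = 1.1e-05) and Bcat2 (-0.93 ± 0.17, adjusted p = 5.76e-05), the mitochondrial transaminase that opens the pathway. Without chow libraries 6, 7 and 8, 9 fell and none rose.

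Mitochondrial lists held more rises than falls, and their counts differed with the libraries kept. Of 21 fatty acid oxidation genes 9 rose and none fell (median 0.36), and without chow libraries 6, 7 and 8 3 of 21 rose. Cpt1a, the carnitine palmitoyltransferase of the outer membrane, ranged from 78.3 to 139 CPM on chow (median 97.9) and from 112 to 231 CPM on HFD (median 196) (1.00 ± 0.13, adjusted p = 3.08e-07), and Decr1 rose by 0.78 ± 0.15. Among 24 nuclear genes of the respiratory chain 8 rose and 1 fell, with Cycs, cytochrome c, foremost (0.97 ± 0.15, adjusted p = 4.11e-06). That count was 17 rises without the 4 libraries low in lymph node transcript, and 2 rises and 2 falls without chow libraries 6, 7 and 8. Of 12 thermogenic genes 4 rose and 3 fell, or 4 and 1 without the 4 low lymph node libraries. Slc36a2, an amino acid transporter used as a brown-fat marker, ranged from 90.6 to 215 CPM on chow (median 159) and from 292 to 583 CPM on HFD (median 331) (1.34 ± 0.19, adjusted p = 1.27e-06), and Otop1 (1.72 ± 0.40), Kcnk3 (1.02 ± 0.22) and Elovl3 (3.42 ± 0.75) rose. Ppargc1a, the coactivator of mitochondrial biogenesis, ranged from 8.52 to 25.7 CPM on chow (median 14.6) and from 1.34 to 8.41 CPM on HFD (median 7.01) and fell (-1.12 ± 0.27, adjusted p = 0.00129).

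Transcription factors of adipogenesis gave 5 falls and 2 rises among 15 genes, against 21.5% lower and 22.6% higher over all genes. Klf15 (-0.92 ± 0.16, adjusted p = 3.02e-05) and Ebf2 (-0.89 ± 0.20, adjusted p = 0.000785) fell, while Zfp423, a factor of white adipocyte identity, rose (0.67 ± 0.18), though not without chow libraries 6, 7 and 8. The 2 central factors Pparg (0.06 ± 0.15, adjusted p = 0.777) and Cebpa (-0.08 ± 0.16, adjusted p = 0.683) were not called.

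**Figure D4:**
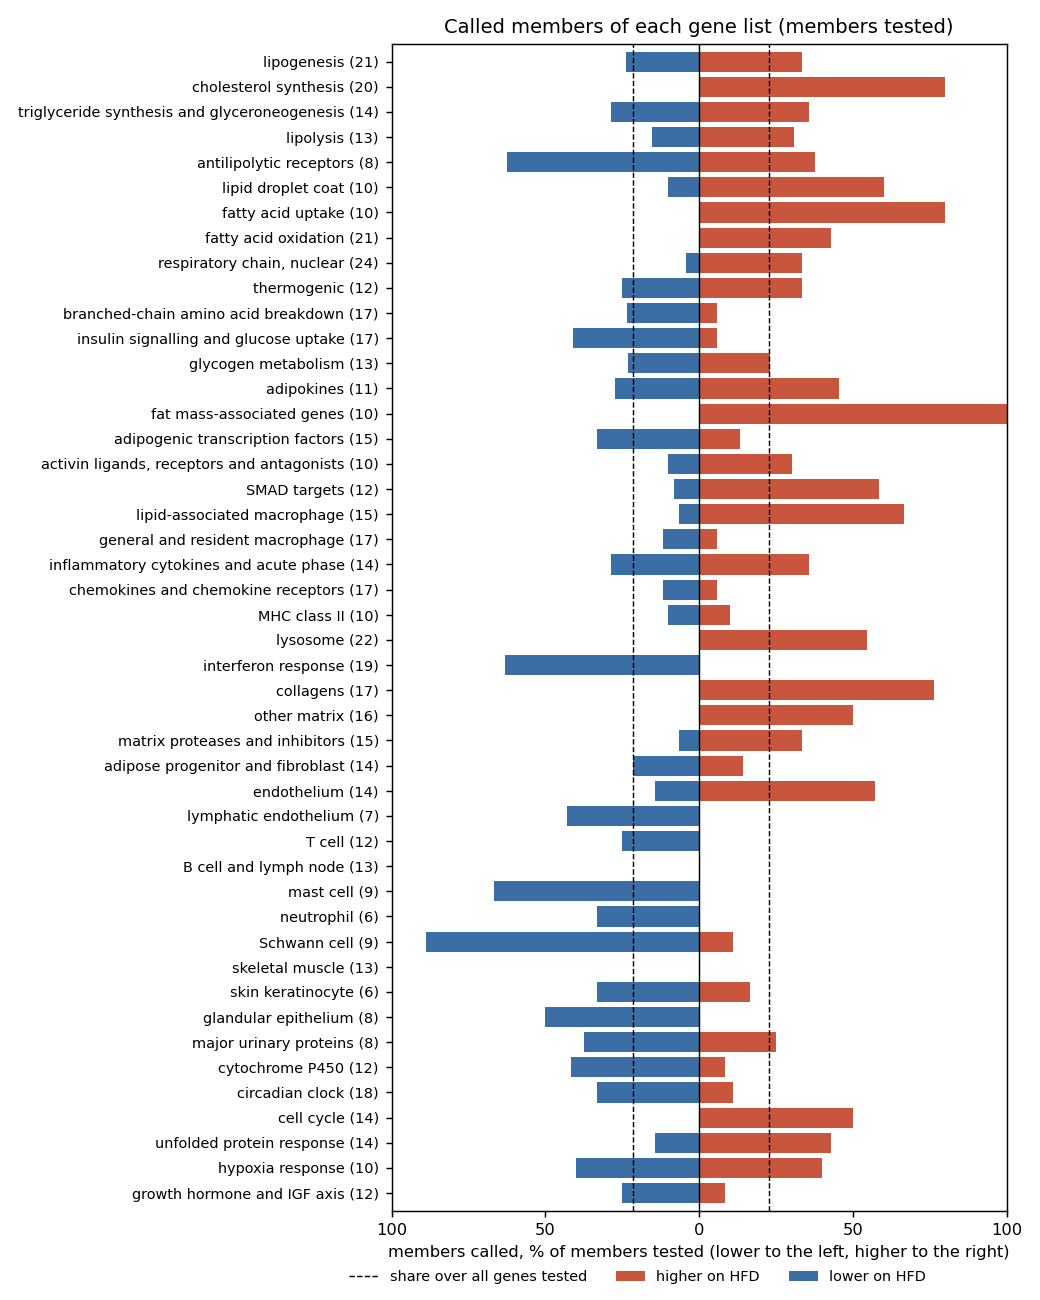
Share of the tested members of each gene list called higher (red, to the right) or lower (blue, to the left) on HFD, with the number of members tested in brackets. Dashed lines mark the shares over all 14220 genes, 22.6% higher and 21.5% lower. Cholesterol synthesis, collagens, fatty acid uptake and the fat mass list lie to the right, Schwann cell markers and interferon response genes to the left.

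Most markers of lipid-associated macrophages rose, and general macrophage markers mostly were not called. Of 15 lipid-associated macrophage genes 10 rose and 1 fell (median 1.14), and without the 4 libraries low in lymph node transcript 6 of 15 rose. Lgals3, galectin-3, ranged from 26.6 to 209 CPM on chow (median 55.5) and from 176 to 365 CPM on HFD (median 320.1) (1.92 ± 0.29, adjusted p = 5.38e-06). Atp6v0d2, a proton pump subunit of such cells, ranged from 0.925 to 14.9 CPM on chow (median 2.14) and from 10.2 to 76.3 CPM on HFD (median 31.3) (3.15 ± 0.54, adjusted p = 2.87e-05), and Dcstamp, a cell fusion protein, rose from 0 to 0.733 CPM on chow (median 0.185) to 1.36 to 3.72 CPM on HFD (median 1.86). Trem2, the lipid receptor that defines these cells and the reason it is given beyond the naming rule, ranged from 0.319 to 8.07 CPM on chow (median 1.21) and from 6.31 to 26.5 CPM on HFD (median 12.4) (2.76 ± 0.49, adjusted p = 4.82e-05), so 1 HFD library lay within the chow range. Fabp5 and the lysosomal lipase Lipa (0.97 ± 0.17) are on the same list, and Apoe, which adipocytes also express, fell (-0.97 ± 0.13, adjusted p = 5.67e-07). Since Apoe is abundant, the summed level of the list did not rise: it was 3235 to 4531 CPM on chow and 2307 to 3791 CPM on HFD.

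Of 17 general and resident macrophage genes, 1 rose (Cd68, 0.98 ± 0.35, adjusted p = 0.0229, not called when HFD library 1 was left out (adjusted p = 0.0581)) and 2 fell (Cx3cr1, -1.56 ± 0.36, adjusted p = 0.000977, and Timd4, -1.89 ± 0.49, adjusted p = 0.00292). Chow libraries 6, 7 and 8, the same ones that were high in neutrophil and mast cell markers, moved this count: without them 9 of 17 rose and none fell. Without the 4 low lymph node libraries none rose and 4 fell, and with lymph node score added as covariate none rose and 5 fell. Chemokine genes gave 1 rise and 2 falls among 17 with all libraries and 8 rises and 1 fall without these 3. Cxcl13, a B cell attractant, fell (-1.78 ± 0.46, adjusted p = 0.00263). It was at 2.13 to 6.85 CPM in the 4 low lymph node libraries and at 23.2 to 107 CPM in the others. Cxcl12 fell (-0.43 ± 0.12), and Cxcl9 rose (0.65 ± 0.17). Whether the makeup of chow libraries 6, 7 and 8 accounts for the difference in counts was not tested.

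Lysosomal genes rose or were not called. Of 22 tested 12 rose and 10 were not called (median 0.51), and the count was 12 without the 4 low lymph node libraries and 14 without chow libraries 6, 7 and 8. Ctsd, cathepsin D, ranged from 662 to 1006 CPM on chow (median 731) and from 1653 to 3090.2 CPM on HFD (median 2019.7) (1.65 ± 0.12, adjusted p = 8.86e-12). Ctsl, cathepsin L, ranged from 291 to 475 CPM on chow (median 360.3) and from 744 to 1093 CPM on HFD (median 909) (1.51 ± 0.11, adjusted p = 2.52e-12). Npc2, which hands cholesterol out of the lysosome (0.95 ± 0.10), Atp6v1b2, a proton pump subunit (0.90 ± 0.09), and Glb1, beta-galactosidase (0.82 ± 0.10), rose as well. The upstream 250 bases of the genes' RefSeq promoters (GRCm38.p6) were searched on both strands for TCACGTGA, the palindromic core known from lysosomal genes. It was present in 3 of the 16 list members that the promoter table holds, Ctsd, Atp6v1a (0.76 ± 0.16, adjusted p = 0.000259) and Gla (0.65 ± 0.15, adjusted p = 0.00111), all of them called higher, and in 0.907% of the 27025 genes in the table. Of the 16 members 9 were called higher, and 3 of these 9 held the motif. Whether the motif goes with the rise was not tested. The shorter core CACGTG, which this motif contains, was in 7 of the 16 and in 6.86% of all genes. A stretch of 100 bases around the match is shown for these 3 genes, 5′ to 3′ towards the transcription start, with the motif in capitals.
Ctsd, chr7:142387873-142387972 (minus strand): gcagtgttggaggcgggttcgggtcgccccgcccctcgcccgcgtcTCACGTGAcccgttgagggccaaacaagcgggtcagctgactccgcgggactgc
Atp6v1a, chr16:44139338-44139437 (minus strand): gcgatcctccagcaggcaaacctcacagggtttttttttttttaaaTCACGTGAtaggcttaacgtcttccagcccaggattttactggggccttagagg
Gla, chrX:134601156-134601255 (minus strand): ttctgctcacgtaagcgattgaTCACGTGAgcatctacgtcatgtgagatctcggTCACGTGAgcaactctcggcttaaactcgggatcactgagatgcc
The Gla stretch holds the motif at 2 places. A match is a description of the sequence and does not show that a factor binds there.

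Inflammatory and acute phase genes were mixed. Of 14 tested 5 rose and 4 fell, and 7 rose and 1 fell without chow libraries 6, 7 and 8. Hp, haptoglobin, a product of fat as well as liver, ranged from 1211 to 1837 CPM on chow (median 1552) and from 1964 to 5130.2 CPM on HFD (median 3462) (1.34 ± 0.16, adjusted p = 1.44e-07) with no overlap. Saa3, the adipose form of serum amyloid A, ranged from 0.138 to 5.21 CPM on chow (median 0.303) and from 2.72 to 17.5 CPM on HFD (median 8.11) (2.89 ± 0.56, adjusted p = 0.000128). Orm1 (1.02 ± 0.17), Nos2 (1.29 ± 0.25) and Serpina3n (0.68 ± 0.19) rose, the last not without the low lymph node libraries, while Il18 fell (-1.41 ± 0.26, adjusted p = 7.53e-05). Among 10 class II antigen presentation genes 1 rose, H2-DMb1 (0.74 ± 0.18), and 1 fell, the master regulator Ciita (-1.31 ± 0.41, adjusted p = 0.0116), whose call was lost without chow libraries 6, 7 and 8.

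Most interferon response genes fell, and this count too rested on a few chow libraries. Of 19 tested 12 fell and none rose (median -0.81). Irf7, the factor that amplifies the type I response, ranged from 22.1 to 143 CPM on chow (median 57.9) and from 15.0 to 44.1 CPM on HFD (median 22.1) (-1.29 ± 0.28, adjusted p = 0.000468), and Mx1, an antiviral GTPase, ranged from 1.08 to 43.7 CPM on chow (median 16.7) and from 1.99 to 13.2 CPM on HFD (median 4.03) (-1.86 ± 0.44, adjusted p = 0.00124). Oas2 (-1.28 ± 0.32), Oasl2 (-1.16 ± 0.35), Zbp1 (-1.11 ± 0.31) and Irgm1 (-0.69 ± 0.22) were also called lower. Without chow libraries 6, 7 and 8 none of the 19 fell and 1 rose, and with lymph node score added as covariate 5 fell. Without the 4 low lymph node libraries and HFD library 6, 6 fell and 1 rose. The interferon-stimulated response element, searched as GAAA, any 2 bases, GAAA, any base and T, on both strands in the same 250 bases, was in 9 of the 13 list members with a promoter in the table and in 0.851% of all genes. Among the 6 called members that the table holds, all lower, 3 had it, so the element was not more frequent in them than in the 13. Whether it goes with the fall was not tested. These 3 are shown because they are the fallen genes that share it.
Isg15, chr4:156200829-156200928 (minus strand): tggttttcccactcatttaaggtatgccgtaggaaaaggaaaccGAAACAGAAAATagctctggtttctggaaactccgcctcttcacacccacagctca
Oas1a, chr5:120907526-120907625 (minus strand): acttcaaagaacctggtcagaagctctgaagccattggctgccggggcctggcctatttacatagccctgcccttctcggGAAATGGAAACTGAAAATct
Irgm1, chr11:48871421-48871520 (minus strand): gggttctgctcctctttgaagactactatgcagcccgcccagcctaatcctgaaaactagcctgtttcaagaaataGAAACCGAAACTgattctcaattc
The capitals mark the match, and in Oas1a they mark 2 overlapping matches. Isg15, a ubiquitin-like antiviral protein, ranged from 3.12 to 30.1 CPM on chow (median 6.64) and from 3.32 to 8.11 CPM on HFD (median 5.95) (-0.93 ± 0.37, adjusted p = 0.0406) and was not called when chow libraries 2, 6 or 7 or HFD libraries 1, 2, 4 or 7, one at a time, was left out (adjusted p = 0.0545 to 0.129). Oas1a, a sensor of double-stranded RNA, ranged from 4.97 to 49.1 CPM on chow (median 11.9) and from 5.13 to 12.4 CPM on HFD (median 8.23) (-0.92 ± 0.36, adjusted p = 0.0362) and was not called when chow libraries 6 or 7 or HFD libraries 1, 2, 5 or 7, one at a time, was left out (adjusted p = 0.0536 to 0.13). The diet groups overlapped for both genes.

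Counts for lymphocyte, mast cell and neutrophil markers differed with the libraries kept and the tool. None of 13 B cell and lymph node genes was called by edgeR, with 1 at an unadjusted p under 0.05, and none by DESeq2, while limma-voom with quality weights called all 13 lower. Their median was -0.97. Leaving out the 4 low lymph node libraries gave 3 falls in edgeR, and adding the lymph node score as covariate gave 2 rises and 1 fall. Fcer2a (-1.53 ± 0.69, adjusted p = 0.0731), Cr2 (-1.34 ± 0.74, adjusted p = 0.142) and Glycam1 (-1.34 ± 0.71, adjusted p = 0.124), the last a product of lymph node venules, had the smallest p-values. Of 12 T cell genes 3 fell, Cd28 (-1.40 ± 0.43), Cd4 (-1.48 ± 0.55) and Cd8a (-1.57 ± 0.62). Cd4 was not called when chow library 8 or HFD libraries 1 or 4, one at a time, was left out (adjusted p = 0.05 to 0.0547), and Cd8a was not called when chow libraries 2, 6, 7 or 8 or HFD libraries 1, 2 or 4, one at a time, was left out (adjusted p = 0.051 to 0.0701). None fell without chow libraries 6, 7 and 8. Of 9 mast cell genes 6 fell, led by the receptor genes Mrgprb1 (-1.37 ± 0.41, adjusted p = 0.00786) and Ms4a2 (-1.43 ± 0.47) and the protease gene Cpa3 (-1.16 ± 0.42), which was not called when chow libraries 7 or 8 or HFD library 5, one at a time, was left out (adjusted p = 0.0504 to 0.0865). When those 3 chow libraries were left out, 1 mast cell gene rose and none fell, and 2 fell without the 4 low lymph node libraries. Of 6 neutrophil genes Cxcr2 (-2.12 ± 0.52) and Csf3r (-1.86 ± 0.51) fell. Without chow libraries 6, 7 and 8, 2 neutrophil genes rose and none fell, and without the 4 low lymph node libraries 2 fell and none rose.

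Most collagen genes rose, and no matrix gene of either list fell. Of 17 collagen genes 13 rose and none fell (median 0.96). Without chow libraries 6, 7 and 8 the count was 16, and without the low lymph node libraries and HFD library 6 it was 8. Col4a2, a chain of the basement membrane network around each adipocyte, ranged from 576 to 832 CPM on chow (median 703) and from 921 to 3977 CPM on HFD (median 2075) (1.77 ± 0.20, adjusted p = 2.76e-08). Its partner Col4a1 (1.33 ± 0.20) and the basement membrane genes Col15a1 (1.47 ± 0.18) and Col18a1 (1.06 ± 0.18) rose with Col5a3 (1.27 ± 0.20) and Col16a1 (1.40 ± 0.21). Fibrillar Col1a1 (0.37 ± 0.31, adjusted p = 0.338) and Col3a1 (0.44 ± 0.25, adjusted p = 0.157), given for comparison after their values were seen, were not called. Chow libraries 6 and 7 held 1776 and 2867 CPM of Col1a1, against 553 to 881 in the other chow libraries and 580 to 2436 on HFD. For Col3a1 they held 5398 and 7217 CPM, against 1952 to 3347 in the other chow libraries and 2085 to 7335 on HFD. Of 16 other matrix genes 8 rose and none fell. Sparc, a collagen-binding glycoprotein, ranged from 2087 to 3582 CPM on chow (median 2944) and from 3468 to 9341 CPM on HFD (median 7025) (1.39 ± 0.14, adjusted p = 7.05e-09), and Lox, the enzyme that crosslinks collagen, ranged from 73.8 to 159 CPM on chow (median 123) and from 181 to 689.9 CPM on HFD (median 398) (1.95 ± 0.24, adjusted p = 1.49e-07). Thbs1 (2.41 ± 0.40), Bgn (0.67 ± 0.10), Eln (0.73 ± 0.15) and Tnc (0.87 ± 0.22) also rose. Of 15 matrix proteases and inhibitors 5 rose and 1 fell, or 2 and 1 without the low lymph node libraries. Adamts5, an aggrecanase, ranged from 139 to 269 CPM on chow (median 213) and from 233 to 909 CPM on HFD (median 746) (1.89 ± 0.20, adjusted p = 1.69e-08), and Mmp9, a gelatinase, fell (-1.84 ± 0.28, adjusted p = 4.92e-06).

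More endothelial genes rose than fell, and no lymphatic one rose. Of 14 endothelial genes tested 8 rose and 2 fell (median 0.41). Esam (0.97 ± 0.15, adjusted p = 5.42e-06), Cldn5 (1.17 ± 0.20, adjusted p = 2.33e-05) and Tie1 (0.84 ± 0.14), junction and receptor genes of blood vessels, were higher, as was Egfl7 (0.63 ± 0.10). The 2 that fell are ligands that other cells make: Vegfa, the main angiogenic factor, ranged from 182 to 371 CPM on chow (median 239) and from 73.3 to 157 CPM on HFD (median 133) (-0.84 ± 0.17, adjusted p = 0.000193), and Angpt1 ranged from 30.7 to 56.1 CPM on chow (median 43.3) and from 9.96 to 27.8 CPM on HFD (median 19.3) (-1.14 ± 0.17, adjusted p = 2.46e-06). Of 7 lymphatic endothelial genes 3 fell, Reln (-1.68 ± 0.20, adjusted p = 1.06e-07), Mmrn1 (-1.63 ± 0.32) and Prox1 (-1.56 ± 0.41), the last being the factor that specifies this cell type. The other 4 were not called, and 5 of 7 fell without the 4 low lymph node libraries. Among 14 progenitor and fibroblast genes 3 fell and 2 rose, against 21.5% lower and 22.6% higher over all genes. Dpp4, a marker of early interstitial progenitors, ranged from 55.6 to 185 CPM on chow (median 66.7) and from 15.0 to 51.5 CPM on HFD (median 36.0) (-1.19 ± 0.25, adjusted p = 0.00036), and Icam1 (-0.67 ± 0.19) and Gdf10 (-0.55 ± 0.18) fell, while Pdgfrb (0.59 ± 0.15) and Meox2 (0.52 ± 0.17) rose. Icam1, Gdf10, Meox2 and Prox1 were not called without chow libraries 6, 7 and 8.

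Most myelin and Schwann cell genes fell, and the libraries that stood apart did not change their count. Of 9 tested 8 fell and 1 rose (median -1.50), and these counts were the same without the 4 low lymph node libraries, without chow libraries 6, 7 and 8, and with the lymph node covariate. Prx, periaxin of myelinating Schwann cells, ranged from 32.3 to 62.8 CPM on chow (median 44.4) and from 6.93 to 23.6 CPM on HFD (median 10.7) (-1.66 ± 0.27, adjusted p = 9.59e-06). Mbp, myelin basic protein, ranged from 134 to 197 CPM on chow (median 169.7) and from 54.6 to 99.3 CPM on HFD (median 71.8) (-0.97 ± 0.14, adjusted p = 1.34e-06). Ncmap (-2.00 ± 0.27) and Cadm4 (-1.50 ± 0.28) fell with them. S100b, which adipocytes also express, was the member that rose (1.20 ± 0.20, adjusted p = 2.39e-05). The summed level of the list was 322 to 495 CPM in the 8 chow libraries and 111 to 242 CPM in the 7 HFD libraries, so the groups did not overlap.

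Markers of skin, gland, muscle and liver differed widely between libraries. The keratinocyte sum was 29.3 to 69.2 CPM on chow and 18.1 to 40.7 CPM on HFD, and the glandular sum was 6.16 to 50.3 CPM on chow and 0.864 to 21.2 CPM on HFD. Of 8 glandular epithelium genes 4 fell, led by Cdh1, E-cadherin (-2.35 ± 0.38, adjusted p = 1.21e-05), with Epcam (-1.87 ± 0.57), and without the low lymph node libraries 1 of 8 fell. Of 6 keratinocyte genes Trp63 (-1.39 ± 0.24) and Sbsn (-0.80 ± 0.20) fell and Dsg1a rose (2.83 ± 0.38). Both genes tested from a mesothelial list fell, Lrrn4 (-2.69 ± 0.46, adjusted p = 2.74e-05) and Krt19 (-2.06 ± 0.73, adjusted p = 0.024), the second of which was not called when chow library 1 or HFD library 7, one at a time, was left out (adjusted p = 0.0508 to 0.0734). Krt19 is also 1 of the 4 glandular genes that fell. It was at 6.12 to 12.5 CPM in chow libraries 1, 3, 6 and 7, where the glandular sum was 30.2 to 50.3 CPM. In the remaining chow libraries Krt19 was at most 1.12 CPM and that sum at most 8.00 CPM, so its fall is not specific to mesothelium. None of 13 skeletal muscle genes was called by edgeR, with 0 at an unadjusted p under 0.05 and 0 by DESeq2, and their sum was 25.6 to 1053 CPM on chow and 31.6 to 966 CPM on HFD. The liver sum was 23.0 to 45.6 CPM on chow and 8.51 to 257 CPM on HFD, highest in HFD library 6, and among 4 liver genes tested 1 rose, Serpina1a (1.82 ± 0.42), a member of a family of close copies. The part these other tissues have in the results was not tested.

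Clock genes were more often lower than higher where called. Of 18 circadian genes 6 fell and 2 rose (median -0.32), or 5 and none without chow libraries 6, 7 and 8. Hlf, a transcription factor of the clock's output, ranged from 19.3 to 47.9 CPM on chow (median 43.7) and from 10.9 to 22.9 CPM on HFD (median 15.4) (-1.09 ± 0.16, adjusted p = 2.15e-06). Per3 (-0.66 ± 0.14, adjusted p = 0.000475) and Tef (-0.41 ± 0.14), other components or outputs of the clock, fell, and Clock itself (0.55 ± 0.18) and Cry2 (0.41 ± 0.12) rose. Tef, Clock and Cry2 were not called without chow libraries 6, 7 and 8. The labels used here give no time of day of sampling.

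Some cell cycle genes rose from a low level. Of 14 tested 7 rose and none fell (median 0.66), and without chow libraries 6, 7 and 8 the count was 12. It was 5 without the 4 low lymph node libraries and 4 when HFD library 6 was left out as well. Cdk1, the mitotic kinase, ranged from 1.02 to 6.82 CPM on chow (median 4.11) and from 7.42 to 15.3 CPM on HFD (median 8.79) (1.57 ± 0.24, adjusted p = 6.33e-06). Ccna2 (0.82 ± 0.28) and Aurka (0.74 ± 0.20) were called higher with overlapping groups. Of 14 unfolded protein response genes 6 rose and 2 fell: the stress factor Atf3 (1.67 ± 0.34, adjusted p = 0.000202), Chac1 (0.94 ± 0.25), Trib3 (0.75 ± 0.19) and Ddit3 (0.57 ± 0.14) rose, and the chaperone Pdia4 (-0.62 ± 0.12, adjusted p = 0.000127) and Asns (-0.53 ± 0.14) fell, the latter not without the low lymph node libraries. Of 10 hypoxia response genes 4 rose, Adm (0.92 ± 0.18, adjusted p = 0.000182), Hif1a (0.75 ± 0.19), Pgk1 (0.55 ± 0.09) and Ldha (0.49 ± 0.13), and 4 fell, led by Pdk1 (-0.69 ± 0.12, adjusted p = 2.57e-05). Ldha was not called without chow libraries 6, 7 and 8, and Hif1a not without the low lymph node libraries. In the growth hormone axis 3 of 12 genes fell, near the 21.5% over all genes. Among them Socs2 (-0.72 ± 0.19) and Igfbp6 (-0.84 ± 0.26) were not called without chow libraries 6, 7 and 8. The receptor Ghr was higher by 0.42 ± 0.16, adjusted p = 0.0374. It was not called when chow libraries 2, 3, 4, 6, 7 or 8 or HFD libraries 1, 2, 4 or 7, one at a time, was left out (adjusted p = 0.051 to 0.0915).

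The diet effect was then compared between genotypes. In mice lacking Inhbe, subcutaneous HFD libraries (8) against chow libraries (7) gave 1661 genes higher (11.7%) and 1287 lower (9.05%) of the same 14220, 20.7% in all. The difference between the 2 diet effects was itself called for 304 genes (2.14%): the HFD minus chow change was more positive in WT for 249 (1.75%) and more negative for 55 (0.387%). Hp had the smallest p of the difference: its log2 change was 1.34 ± 0.16 in WT and -0.85 ± 0.16 in knockout mice, a difference of 2.19 ± 0.23, adjusted p = 1.93e-06. Ubd rose by 4.27 ± 0.20 in WT and by 1.94 ± 0.19 in knockout mice (difference 2.33 ± 0.26, adjusted p = 4.98e-06). For Ctsl the changes were 1.51 ± 0.11 and 0.26 ± 0.11 (difference 1.25 ± 0.15, adjusted p = 6.74e-06), and for Fam83d they were 3.93 ± 0.26 and 0.72 ± 0.27 (difference 3.21 ± 0.37, adjusted p = 5.66e-06). Fam122b differed by 1.28 ± 0.16, adjusted p = 1.3e-05.

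Among genes with a more negative change in WT, Cyp2e1 changed by -3.44 ± 0.34 in WT and was not called in knockout mice (-0.29 ± 0.30), a difference of -3.15 ± 0.44, adjusted p = 6.35e-05. Cyp2f2 fell in both genotypes, with changes of -5.88 ± 0.30 in WT and -3.36 ± 0.25 in knockout mice (difference -2.52 ± 0.35, adjusted p = 6.35e-05). Elovl7, a fatty acid elongase, fell in WT (-1.57 ± 0.26) and rose (0.94 ± 0.24) in knockout mice (difference -2.51 ± 0.35, adjusted p = 6.58e-05). Nap1l5 (-0.29 ± 0.23 in WT, 1.93 ± 0.23 in knockout mice) and Ppp1r3b (0.11 ± 0.17 and 1.43 ± 0.17) were not called in WT and rose in knockout mice, with differences of -2.22 ± 0.32, adjusted p = 9.99e-05 for the first and -1.32 ± 0.24, adjusted p = 0.00146 for the second. For Lep (difference 0.96 ± 0.36, adjusted p = 0.181), Mest (0.96 ± 0.45, adjusted p = 0.306), Cfd (-0.01 ± 0.30, adjusted p = 0.988) and Adrb3 (-1.19 ± 0.40, adjusted p = 0.12) the diet effect was not shown to differ by genotype. By list, the interaction was called in the positive direction for 4 of 14 endothelial genes, 4 of 22 lysosomal genes and 3 of 17 collagens, and for none of the 20 cholesterol synthesis genes. Over all genes that share was 1.75%, so a count of none among 20 does not set the cholesterol list apart.

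The third comparison was with epididymal fat of WT mice, the visceral depot beside the testis, with 8 libraries a diet. There 4345 of 15042 genes rose (28.9%) and 3794 fell (25.2%), 54.1% in all. A direct test of diet by depot, over 15480 genes, called 5157 (33.3%), of which 2672 (17.3%) had the more positive change in subcutaneous fat and 2485 (16.1%) in epididymal fat. Macrophage genes differed between the depots: of 15 lipid-associated macrophage genes 13 rose in epididymal fat with a median of 3.90, against 10 and 1.14 in subcutaneous fat, and the depot difference was called for 11 of the 15. All 22 lysosomal genes rose in epididymal fat, and all 14 cell cycle genes, with the depot difference called for 18 and 14. Resistin (Retn) was not called in subcutaneous fat (-0.04 ± 0.16) and fell in epididymal fat (-2.46 ± 0.18), a difference of 2.46 ± 0.23, adjusted p = 2.71e-12. Mest rose in both, by 5.24 ± 0.34 and 2.07 ± 0.19 (difference 3.23 ± 0.36, adjusted p = 2.61e-10), and Lep by 2.94 ± 0.27 and 1.64 ± 0.23 (difference 1.35 ± 0.34, adjusted p = 0.00154).

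Sox7, an endothelial transcription factor, rose in subcutaneous fat (0.88 ± 0.17) and fell in epididymal fat (-1.78 ± 0.14) (difference 2.71 ± 0.22, adjusted p = 1.07e-14). Ccdc9b (2.34 ± 0.20, adjusted p = 1.82e-13), Fam160a1 (2.22 ± 0.21, adjusted p = 4.35e-12) and Reep1 (2.41 ± 0.24, adjusted p = 1.27e-11) also had differences in favour of subcutaneous fat, each rising there and falling in epididymal fat. In the other direction the smallest p-values belonged to Arhgap19 (-0.89 ± 0.15 in subcutaneous, 2.20 ± 0.13 in epididymal fat), Pacc1 (0.10 ± 0.12 and 2.73 ± 0.14), Arhgap25 (0.13 ± 0.22 and 4.21 ± 0.21), Myo1e (0.26 ± 0.16 and 3.23 ± 0.15) and Nfya (-0.50 ± 0.09 and 1.06 ± 0.09). Branched-chain amino acid breakdown fell in 15 of 17 genes in epididymal fat against 4 in subcutaneous fat, and the depot difference was called for 15. The change of Npr3 was 2.35 ± 0.32 in subcutaneous fat and 0.23 ± 0.23 in epididymal fat (difference 2.16 ± 0.39, adjusted p = 1.71e-05), and that of Ptger3 was 2.77 ± 0.19 and 0.88 ± 0.21 (difference 1.95 ± 0.27, adjusted p = 6.8e-08). The labels do not say whether the depots came from the same animals, and the fit treated all libraries as independent.

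**Figure D5:**
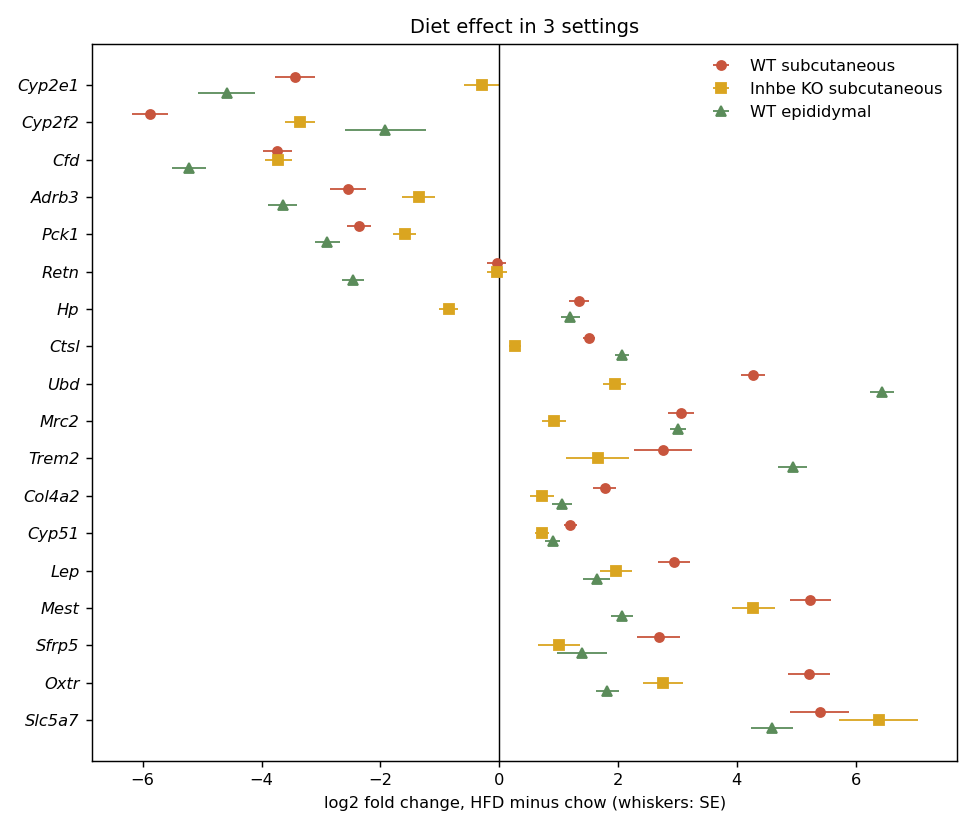
Log2 fold change, HFD minus chow, with its standard error for 18 genes in WT subcutaneous fat (red circles), Inhbe knockout subcutaneous fat (yellow squares) and WT epididymal fat (green triangles). Hp is above 0 in WT fat of both depots and below 0 in knockout subcutaneous fat, and Retn is near 0 in subcutaneous fat of both genotypes and below 0 in epididymal fat.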

How the data were processed

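Per the labels' protocols, libraries were made from messenger RNA with a KAPA kit and adapters that carry molecular identifiers, and were sequenced in paired ends on a NovaSeq. The authors deposited a table of estimated counts for 24475 genes, on build mm10 per the submitters' processing notes, while aligner, counter and any use of these identifiers are not given in the sources used. The deposited estimated counts were not whole in 2.93% of values (tolerance 1e-06) and were rounded, where raw counts had been assumed when the tests were written down. Gene IDs were matched to RefSeq symbols, and 100 had none. The 15 libraries held 13634565 to 17288398 counts each. In no group did 2 libraries agree within sampling noise (49 pairs).

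Diet effects were tested in R 4.3.3 with the quasi-likelihood test of edgeR 4.0.16 (TMM scaling, low-count filter by group with a minimum count of 10 and a minimum total of 15, robust fit). All 4 subcutaneous groups of the knockout study entered the fit, and 8 groups entered the test of diet by depot. Adjusted p-values are Benjamini-Hochberg values over all genes tested, and a gene was called at an adjusted p under 0.05. CPM values were computed here from the library totals and are not scaled by gene length, so they are compared within a gene. The p-values assume that libraries are independent.

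Alternatives were DESeq2 1.42.0, limma 3.58.1 with voom and quality weights, other size factors, no filter, fewer groups or libraries, a lymph node score (mean log2 CPM of the 13 B cell and lymph node markers) added as covariate, and the replicate number as a block. In the test of diet by depot that block was the replicate number within each genotype and diet, shared by the depots. The scripts were tested on simulated data. Intervals and limits cover counting error only. Gene lists, members and settings were chosen with earlier results of these data known. The genes named are Lep, Inhbe and Acvr1c, the 12 largest changes each way among called genes of at least 1 CPM on average, the 10 smallest p-values each way at 10 CPM or more, up to 6 called members of each list (or 3 uncalled where none was called) with the fat cell markers, and the 5 smallest p-values of each sign for the 2 interactions. Others were named after their values were seen, and a few genes that the rule picks are not reported here. Promoter sequences are from RefSeq (GRCm38.p6). Python 3.11.15 was used for summaries and plots.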

Additional observations from a re-analysis of the deposited data

Results flagged for a closer look

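For each named gene and for 9 marker sums, the 8 chow and the 7 HFD libraries were searched for a single library whose gap to its nearest neighbour, on the log2(CPM + 1) scale, took up more of its group's range than Dixon's 95% critical value. This was met in 63 of 528 groups of values, and chance gives about 1 in 20. The groups share libraries, so they are not independent.

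HFD library 6, which had the highest albumin level, stood apart for 20 genes. It was the lowest of its diet group for Acvr1c at 42.3, Adamts5 at 233, Atp6v1a at 54.9, Dsg1a at 0.735, Gyg at 59.5, Irgm1 at 6.22, Meox2 at 13.3 and Npr3 at 552 CPM. Also, it was the lowest of its diet group for Pdia4 at 45.3, Ppargc1a at 1.34 and Sparc at 3468 CPM. It was the highest of its diet group for Gys1 at 128, Lipe at 1933, Pgd at 661, Prkaca at 363, Serpina1a at 10.7, Slc27a4 at 76.9, Slc2a4 at 149.8 and Slc36a2 at 583 CPM. Also, it was the highest of its diet group for Tie1 at 137 CPM.

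HFD library 3 stood apart from the other 6 HFD libraries for 10 values, among them several adipocyte genes. It was the lowest of its diet group for Cd36 at 3742, Fgf13 at 78.0 and Irs2 at 3.39 CPM. It was the highest of its diet group for Cfd at 789.6, Fabp4 at 24447, Orm1 at 249, Retn at 974, S100b at 26.6, Thrsp at 271 and the summed mast cell list at 121 CPM.

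Chow library 1, the chow library low in lymph node transcript, stood apart for 20 values, most of them of immune genes. It was the lowest of its diet group for Arhgap25 at 5.03, Cd28 at 1.21, Cd4 at 1.85, Cd8a at 0.382, Ciita at 6.31, Cr2 at 0.0637, Cxcl13 at 5.48 and Fcer2a at 0.382 CPM. Also, it was the lowest of its diet group for Glycam1 at 0, H2-DMb1 at 7.96, Nedd9 at 39.2, Nfya at 29.0, Pacc1 at 4.97, Srebf2 at 35.0, Tef at 105 and Timd4 at 4.46 CPM. Also, it was the lowest of its diet group for Ubd at 6.63, the summed B cell and lymph node list at 3.38 and the summed T cell list at 11.7 CPM. It was the highest of its diet group for Clock at 123 CPM.

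The other 13 values were spread over 7 libraries. HFD library 1 had the highest value for Atf3 at 32.4 CPM. HFD library 5 had the lowest value for Msmo1 at 30.5 CPM and the highest value for Mx1 at 13.2 CPM. Chow library 2 had the highest value for Elovl3 at 3.30, Smad6 at 13.3 and Ucp1 at 83.4 CPM. Chow library 3 had the lowest value for Ppp1r3d at 8.73 CPM and the highest value for Chac1 at 5.61 and Gm9696 at 0.752 CPM. Chow library 6 had the lowest value for Lrrn4 at 0.220 CPM. Chow library 7 had the highest value for Col18a1 at 189 CPM. Chow library 8 had the lowest value for Inhbb at 31.1 CPM and the highest value for Mup10 at 25.6 CPM.

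Among the genes whose genotype difference is reported above, edgeR's interaction term called it for 10. The log2 difference, WT minus knockout, was positive for Ctsl (1.25), Fam122b (1.28), Fam83d (3.21), Hp (2.19) and Ubd (2.33) and negative for Cyp2e1 (-3.15), Cyp2f2 (-2.52), Elovl7 (-2.51), Nap1l5 (-2.22) and Ppp1r3b (-1.32). Among those whose depot difference in WT is reported above it was called for 14, and the log2 difference, subcutaneous minus epididymal, was positive for Ccdc9b (2.34), Fam160a1 (2.22), Lep (1.35), Mest (3.23), Npr3 (2.16), Ptger3 (1.95), Reep1 (2.41), Retn (2.46) and Sox7 (2.71) and negative for Arhgap19 (-3.04), Arhgap25 (-4.04), Myo1e (-2.91), Nfya (-1.51) and Pacc1 (-2.58). Other named genes, not listed here, were also called in these terms.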

How the results depend on the processing

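The diet comparison called 6278 genes, 6567 with DESeq2, 6293 with relative log expression size factors, 8631 with limma-voom and quality weights, 6450 without the low-count filter and 6011 with lymph node score added as covariate. Leaving out 1 library at a time gave 5706 to 7003 calls, 2849 to 3620 of them higher and 2758 to 3444 lower. A fit on the 15 libraries alone called 3867, 1680 of them lower. It had fewer libraries behind its estimate of spread, and the cause of its lower count was not tested. When chow libraries 6, 7 and 8 were left out the count was 4819, 1995 of them lower, a setting chosen after seeing the data, as was leaving out 5 libraries (5750 calls). Without the 4 low lymph node libraries it was 5878. Genes called both with all libraries and in any one of these settings had the same direction in both.

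The genotype difference was called for 304 genes, for 569 with DESeq2 (444 more positive in WT, 125 more negative), for 335 with the other size factors and for 329 without the 4 low lymph node libraries; the cause of the DESeq2 count was not tested. The depot difference was called for 5157 genes and for 4868 to 5457 in its alternatives.

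Of 233 calls on genes named in the text, none was lost with DESeq2 or other size factors, 2 without the filter, 13 with limma-voom, 18 with the covariate, 1 to 6 when 1 library was left out, 2 without the 2 libraries with liver transcript (HFD library 6 and 1 knockout library), 35 without chow libraries 6, 7 and 8, 19 without the 4 low lymph node libraries and 27 when HFD library 6 was left out as well. The fit on 15 libraries lost 22 of 229.

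Changes of sign were nearly all in genes that were not called; of the called genes, Mup10, Mup18 and Oas1a changed sign, and the cause was not tested in any case. With DESeq2 the log2 values were Alb -0.40. With limma-voom and quality weights the log2 values were Alb -1.82, Lipe -0.17, Mup18 0.65, Scd1 0.31 and Ucp1 3.28. With lymph node score added as covariate the log2 values were Pparg -0.093 and Ppp1r3b -0.11. Without the 2 libraries with liver transcript the log2 values were Alb -1.04, Lipe -0.14 and Scd1 0.081. Without chow libraries 6, 7 and 8 the log2 values were Lipe -0.17, Mup10 0.00, Mup18 0.43, Oas1a 0.21 and Pparg -0.11. Without the 4 low lymph node libraries the log2 values were Cebpa 0.064, Cfd (genotype by diet) 0.32, Col1a1 -0.083, Fasn 0.18, Myo1e -0.047, Nap1l5 0.043, Pacc1 -0.025, Plin1 0.048, Pnpla2 0.091, Ppp1r3b -0.27 and Retn 0.22. Without these 4 and HFD library 6 the log2 values were Alb -0.40, Col1a1 -0.48, Col3a1 -0.24, Lipe -0.066, Nap1l5 0.34, Ppp1r3b -0.26, Retn 0.26 and Scd1 0.032. When 1 library was left out at a time, values of either sign were given for Alb (-1.05 to 0.71), Arhgap25 (-0.023 to 0.20), Fasn (-0.46 to 0.079), Lipe (-0.14 to 0.15), Plin1 (-0.25 to 0.044), Pparg (-0.020 to 0.20), Ppp1r3b (-0.026 to 0.22), Retn (-0.25 to 0.020), Scd1 (-0.24 to 0.22) and Ucp1 (-1.88 to 2.92).

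Chow and HFD libraries share replicate numbers, but the labels do not say that a number marks a shared animal, litter or day. The correlation of same-numbered libraries' deviations from their group means ranged from -0.339 to 0.515 over 7 pairs, 2 were over 0.1, and 1 library matched its own number best, so the numbers were not used as pairs. With the replicate number as a block, 5836 genes were called (2919 higher, 2917 lower) and the genotype difference was called for 205. For the depot difference the block instead joined subcutaneous and epididymal libraries of the same genotype, diet and number. The labels do not give that pairing, and the depot difference was then called for 4868. The 6 named calls lost under the block were Cpa3, Ghr, Isg15, Mup10, Mup18 and Oas1a, and sign changed for Alb -0.36, Cfd (genotype by diet) 0.0046 and Ucp1 1.39.

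At the depth of these libraries 3 counts, the limit that a count of 0 allows, corresponded to 0.174 to 0.22 CPM, and differences below that level were not detectable.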
